A study of Homo sapiens with 15 samples.

Results

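GATA2 and SMC3 were set against each other within 1 cell line, TF-1 cells that carry an inducible vector for wild-type (WT) RAD21. The sites compared are the peaks of the WT GATA2 list and the WT SMC3 list on the 22 autosomes, 38063 and 41215 peaks, together 79278 of the 198298 peaks in the 6 lists of the series. A pair of peaks was called joint when they overlapped by at least 1 bp, and a peak with no partner in the other list was called single. TF-1 is a human erythroleukemia cell line, and the series set the cells with mutant RAD21 (Q592*, which ends at a premature stop codon) beside the WT cells to ask how binding of GATA2, RUNX1 and SMC3 differs. All cells compared here, Q592* and WT, had the vector switched on with doxycycline for 6 days. The labels describe added RAD21 forms in a transduced line and do not say whether the line is 1 clone. Each target has 2 ChIP libraries in WT, merged into 1 peak list, so there was no replicate spread, no test was possible, and every difference below is a difference within or between pooled lists.

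SMC3 is a subunit of cohesin, the ring-shaped complex to which RAD21 also belongs. Cohesin holds sister chromatids together and extrudes chromatin loops, and it is best known from places where the zinc-finger protein CTCF stops it, although it also loads and dwells at enhancers and promoters. GATA2 is a zinc-finger transcription factor of blood stem and progenitor cells that binds GATA motifs, mostly at enhancers, often with RUNX1. A GATA2 peak that also holds SMC3 is thus a place where a factor of enhancers and the loop-forming complex were both recovered. Such sites need not be bound by both in the same cell at the same time.

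About 1 peak in 4 of either list was joint. SMC3 was called at 10056 of the 38063 GATA2 peaks (26.4%, 95% Wilson interval 26.0 to 26.9%), and GATA2 at 10324 of the 41215 SMC3 peaks (25.0%, 24.6 to 25.5%). These shares, 26.4% and 25.0%, are the background against which the shares of subsets are read below. Intervals cover counting error only. The GATA2 peaks covered 0.411% and the SMC3 peaks 0.460% of the bases between the first and the last summit of each chromosome. Joined into regions, the peaks gave 9992 joint regions (14.5% of 68890), 28007 GATA2-only regions (40.7%) and 30891 SMC3-only regions (44.8%). Most joint regions were simple pairs: 9618 of 9992 (96.3%) held 1 peak of each target, and 310 held 1 GATA2 peak with several SMC3 peaks. The number of joint regions depended on the weak peaks and on the overlap asked for. With a −log10 q of at least 10 in both lists there were 3033 joint regions, holding 13.5% of the GATA2 and 11.2% of the SMC3 peaks, and with a reciprocal overlap of 50% there were 6179.

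The 2 lists entered the joint sites from opposite ends. Joint GATA2 peaks were the strong ones of their list, with a median −log10 q of 28.2 and a median fold enrichment of 6.25, against 10.2 and 4.17 for single GATA2 peaks. Joint SMC3 peaks were the weak ones of theirs, with a median −log10 q of 7.87 and a fold of 4.01, against 27.1 and 5.90 for single SMC3 peaks. The −log10 q and the fold of a peak are the authors' own values and served only to rank and describe peaks within a list. Joint GATA2 peaks were also wider, with a median of 358 bp against 233 bp for single ones, whereas joint and single SMC3 peaks had medians of 256 and 273 bp.

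Split into deciles by strength, the GATA2 list showed a steady gradient. SMC3 was called at 11.2% (10.3 to 12.3%) of the weakest decile of GATA2 peaks, at 16.3% (15.1 to 17.5%) of the fifth, at 34.0% (32.5 to 35.5%) of the eighth and at 71.7% (70.2 to 73.1%) of the strongest. The strongest decile, with a −log10 q of 58.6 and above, alone held 2728 of the 10056 joint GATA2 peaks. Peak width grew along the same deciles, with a median of 192 bp in the weakest and 485 bp in the strongest, and a wide peak meets a neighbour more easily. A measure that takes no account of width gave the same order: an SMC3 summit lay within 50 bp of the GATA2 summit for 4.68% of the weakest decile and 33.9% of the strongest.

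The SMC3 list showed the reverse. GATA2 was called at 48.8% (47.3 to 50.3%) of the weakest decile of SMC3 peaks, at 36.1% (34.6 to 37.6%) of the fourth, at 13.0% (12.0 to 14.0%) of the sixth and at 6.77% (6.04 to 7.58%) of the ninth. The strongest decile stood slightly above its neighbour at 9.36% (8.51 to 10.3%). In this list the wider peaks were the ones with fewer partners, since the median width was 173 bp in the weakest decile and 506 bp in the strongest. Summits within 50 bp of a GATA2 summit were found for 18.4% of the weakest, 21.6% of the second and 3.91% of the strongest decile.

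**Figure D1:**
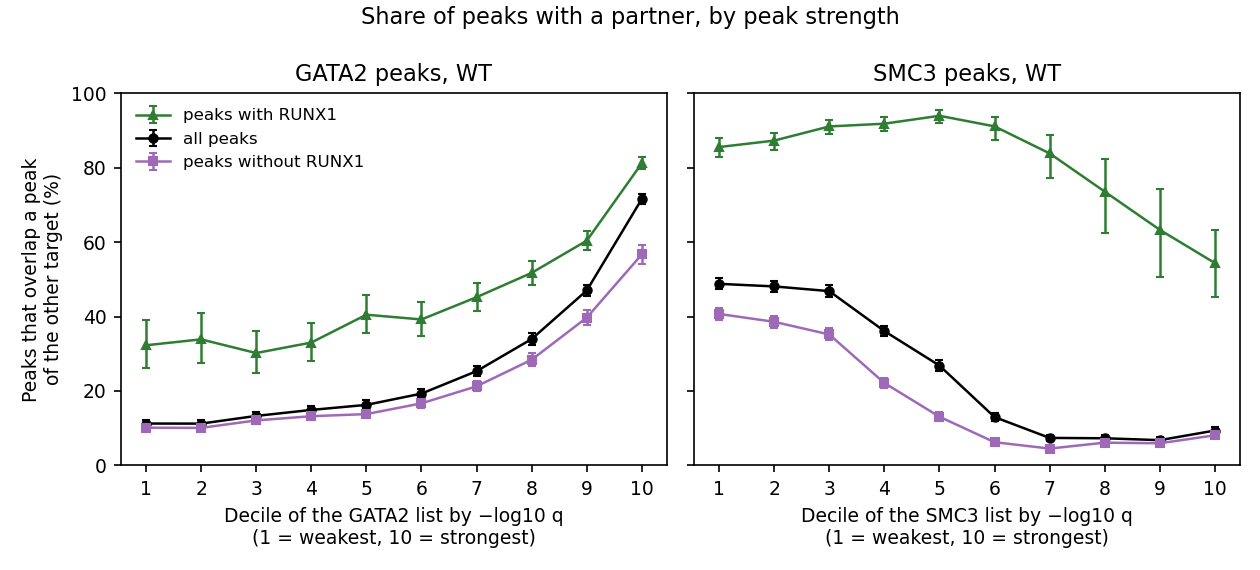
Percentage of GATA2 peaks (left) and SMC3 peaks (right) that overlap a peak of the other target, for deciles of each list by −log10 q, over all peaks and over peaks with and without a WT RUNX1 peak; bars are 95% Wilson intervals. The black line climbs to 71.7% for the strongest GATA2 decile and drops from 48.8% to below 10% along the SMC3 list.

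Because the input library sets the local background of a peak, the background was recovered from the deposited fold and −log10 p (its value genome-wide was 5.29 reads in the GATA2 list and 4.05 in the SMC3 list). Relative to that value, the median local background was 1.68 at joint and 1.45 at single GATA2 peaks, and 1.71 at joint and 2.09 at single SMC3 peaks. The joint share differed with it in both lists. Of GATA2 peaks at no more than the genome-wide background 19.1% (18.3 to 20.0%) were joint, of those above it but below 3 times that value 27.6% (27.1 to 28.2%), and of those at 3 times or more 33.0% (31.7 to 34.3%). Among SMC3 peaks the share was highest in the middle class, at 31.7% (31.1 to 32.3%) of 22330 peaks, with 23.4% (22.4 to 24.4%) below it and 13.5% (12.9 to 14.2%) above it. The classes also differed in strength. From the lowest to the highest background the median −log10 q was 10.8, 12.0 and 19.1 for GATA2 and 13.95, 14.0 and 34.9 for SMC3. The gradients over strength were also present among peaks at the genome-wide background. There SMC3 was called at 7.20% of the weakest and 75.6% of the strongest GATA2 decile, and GATA2 at 47.2% of the weakest and 7.48% of the ninth SMC3 decile. The strongest SMC3 decile, with 278 peaks at that background, had 18.4% (14.2 to 23.3%).

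Combining both rankings, 6365 of the 9992 joint regions (63.7%) had a GATA2 peak above the median of the GATA2 list and an SMC3 peak below the median of the SMC3 list. The opposite combination, weak GATA2 with strong SMC3, was found at 658 regions (6.59%). Both peaks were above the medians at 1143 regions (11.4%) and both below them at 1826 (18.3%). Partners of the strongest GATA2 decile had a median SMC3 −log10 q of 9.33 (quartiles 6.24 and 14.8), where the SMC3 list as a whole had a median of 18.4. Partners of the weakest SMC3 decile had a median GATA2 −log10 q of 24.0, where the GATA2 list had 12.2.

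**Figure D2:**
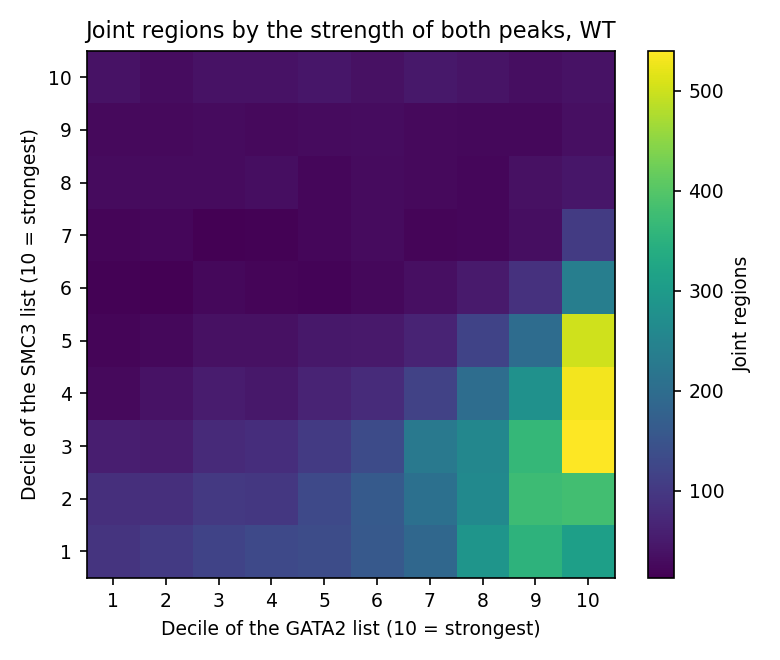
Number of joint regions for each combination of GATA2 strength (horizontal, deciles of the GATA2 list) and SMC3 strength (vertical, deciles of the SMC3 list). The counts gather in the lower right, where the strongest GATA2 decile meets the third (540 regions) and the fourth (531 regions) SMC3 deciles.

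Within the joint regions the ranks of both targets hardly went together. Spearman's rank correlation between the GATA2 and the SMC3 −log10 q was 0.09 over the 9992 joint regions and 0.13 with the fold in its place. It is given as a description, with no p, because all regions come from the same merged libraries and the lists may share inputs. The value was not stable: it was -0.15 with a −log10 q of at least 10 in both lists and 0.24 for pairs with a reciprocal overlap of 50%. Over single chromosomes, with 94 to 1139 joint regions each, the rank correlation ran from -0.13 to 0.21 and was above 0 on 16 of 22. Regions with both peaks at the genome-wide background had 0.07 (n = 1258).

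The weak overall agreement joined opposite slopes. Where SMC3 was below the median of its list, GATA2 strength went up with SMC3 strength (rank correlation 0.24, n = 8191), and where SMC3 was above it, GATA2 strength went down (rank correlation -0.36, n = 1801). Along the deciles of the SMC3 list the median GATA2 −log10 q at joint regions was 22.4 in the weakest, 31.0 in the third, 52.5 (95% interval of the median 47.6 to 56.5) in the fifth, 25.8 (18.0 to 36.0) in the seventh and 12.3 (10.9 to 14.5) in the strongest. The GATA2 −log10 q at joint sites was thus highest where SMC3 was of middling strength. In the other direction the median SMC3 −log10 q stayed between 7.17 and 7.70 from the first to the ninth GATA2 decile and was 9.73 (9.40 to 9.91) in the strongest.

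The summits of the targets lay close together at joint regions, which the overlap rule in part sets. Median peak widths were 254 bp for GATA2 and 269 bp for SMC3, which limits how far apart summits of overlapping peaks can lie. The median distance between the GATA2 and the SMC3 summit was 57 bp (interval of the median 55 to 58 bp), with quartiles of 25 and 108 bp. It was within 50 bp at 46.0%, within 100 bp at 72.7% and within 200 bp at 91.4% of joint regions, where sheared fragments averaged 200 to 400 bp by the labels. At 54 regions the summits fell on the same base, and the farthest pair was 1134 bp apart. Of the 10388 overlapping pairs, 75.5% had each summit inside the other peak and 4.59% had neither.

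Summit distance varied with the strength of SMC3 more than with that of GATA2. Over the deciles of the SMC3 list the median was 70 bp in the weakest, 51 bp in the fourth, 53 bp in the sixth and 72 bp in the strongest. Over the deciles of the GATA2 list it lay between 56 and 67 bp. Joint regions with SMC3 above the median of its list had a longer tail: 83.6% of them had summits within 200 bp, against 93.1% of those with SMC3 below it, while the medians were 59 and 56 bp. Strong SMC3 peaks were also wider, with a median of 173 bp in the weakest and 506 bp in the strongest decile. Wider peaks can overlap with their summits farther apart. Pairs just inside the overlap limit, with 1 to 50 bp in common, numbered 185 and had a median −log10 q of 10.0 for GATA2 and 5.51 for SMC3. Just outside it, 145 pairs were separated by 0 to 49 bp and had medians of 9.61 and 5.63, so that weak peaks lay on both sides of the limit.

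**Figure D3:**
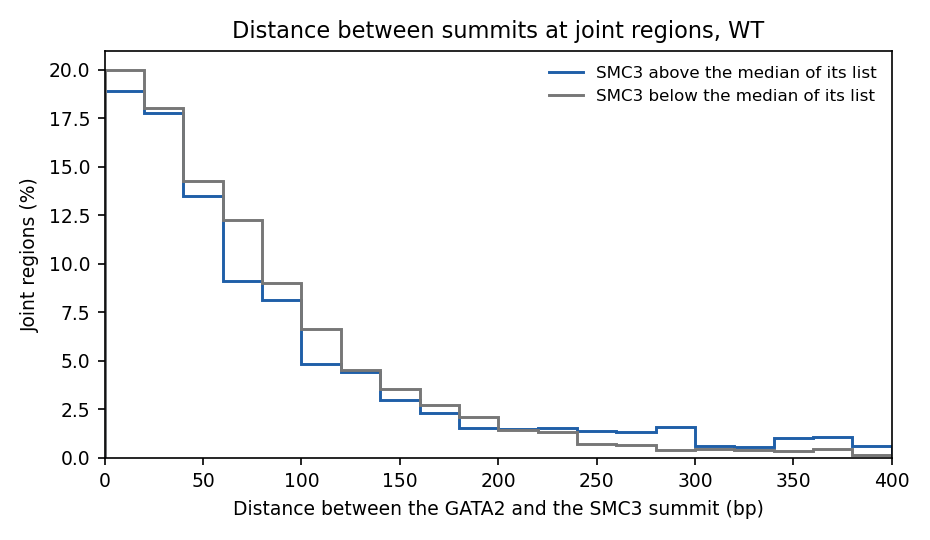
Distance in bp between the GATA2 and the SMC3 summit at joint regions, in bins of 20 bp, as the percentage of regions whose SMC3 peak is above or below the median of the SMC3 list. Both curves are highest in the first bin, at 18.9% and 20.0%, and beyond 240 bp the curve for strong SMC3 is the higher one.

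RUNX1, the third factor profiled, was a feature of the joint sites that the overlap rule did not use. A WT RUNX1 peak overlapped 40.95% (40.0 to 41.9%) of joint regions, against 10.3% (9.94 to 10.7%) of GATA2-only and 1.75% (1.61 to 1.90%) of SMC3-only regions. The background over all regions was 10.9%. A joint region spans both its peaks, and joint GATA2 peaks were wider than single ones (medians of 358 and 233 bp). Joint regions thus meet a RUNX1 peak more easily. With a reciprocal overlap of 50% between RUNX1 and the peak the shares were 34.2%, 7.23% and 1.09%. When only peaks with a −log10 q of at least 10 were kept, RUNX1 peaks included, the shares were 37.2%, 13.4% and 0.833%. Joint regions with RUNX1 had a median GATA2 −log10 q of 52.5, against 18.9 for those without it, whereas the median SMC3 −log10 q was 8.91 against 7.46. RUNX1 was called at 48.9% (47.7 to 50.2%) of the regions with strong GATA2 and weak SMC3, and at 9.57% (7.56 to 12.1%) of those with weak GATA2 and strong SMC3. Where both were strong the share was 45.5% (42.6 to 48.4%), and where both were weak 21.6% (19.8 to 23.6%), so that RUNX1 was more frequent with strong GATA2 at either level of SMC3.

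The difference was present within deciles of GATA2 strength, inside which strength can still differ. Of the weakest decile of GATA2 peaks, 32.3% (26.1 to 39.2%) with RUNX1 and 10.1% (9.18 to 11.2%) without it overlapped SMC3. In the fifth decile the shares were 40.5% (35.5 to 45.7%) with RUNX1 and 13.8% (12.7 to 15.0%) without, and in the strongest 81.3% (79.6 to 82.8%) and 56.7% (54.2 to 59.2%). In each of the 10 deciles the share was higher with RUNX1. The Wilson intervals did not overlap, but they cover counting error within 1 merged list per target and are no test. Read from the SMC3 list, RUNX1 mostly came with GATA2, as it did over the whole WT RUNX1 list, where 74.9% of peaks overlapped GATA2. Of the SMC3 peaks with RUNX1, 85.6% (82.9 to 87.9%) in the weakest decile and 94.0% (92.0 to 95.5%) in the fifth were joint with GATA2. Without RUNX1 the shares were 40.7% and 13.1%. Among the strong SMC3 peaks the share with RUNX1 was lower, at 54.4% (45.2 to 63.2%) of the 114 in the strongest decile, against 8.08% without.

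Rank agreement also differed with RUNX1. The rank correlation was 0.26 over the 4092 joint regions with RUNX1 and -0.03 over the 5900 without. With SMC3 below the median of its list it was 0.26 and 0.16, and with SMC3 above it the value was -0.23 (n = 583) and -0.15 (n = 1218). Summit distance did not follow RUNX1, with medians of 57 bp with it and 56.5 bp without.

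Single sites, which by the rule overlap no peak of the other target, lay nearer to it than base positions do. The median GATA2-only peak was 13.7 kb from the nearest SMC3 summit (interval of the median 13.5 to 14.0 kb, quartiles 4.87 and 31.1 kb), and the median SMC3-only peak was 23.8 kb from the nearest GATA2 summit (23.2 to 24.3 kb, quartiles 7.72 and 64.9 kb). Both are shorter than the distances of the base positions between the first and the last summit of the other list, whose medians were 34.4 kb to SMC3 and 57.3 kb to GATA2. Within 1 kb of an SMC3 summit were 6.29% of GATA2-only peaks and 2.80% of base positions, and within 1 kb of a GATA2 summit 4.70% of SMC3-only peaks and 2.57% of base positions. Within 10 kb of an SMC3 summit were 41.05% of GATA2-only peaks and 21.8% of base positions. Within 10 kb of a GATA2 summit were 29.9% of SMC3-only peaks and 18.4% of base positions. Base positions include gaps and sequence that reads cannot be mapped to, which lengthen their distances. With a −log10 q of at least 10 in both lists the medians of the single sites were 23.3 and 39.5 kb.

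For GATA2-only peaks the distance hardly depended on strength, with medians of 12.4 kb in the weakest decile, 14.9 kb in the seventh and 13.6 kb in the strongest. For SMC3-only peaks it did. The weakest decile lay a median of 8.18 kb from GATA2, the third 18.6 kb, the sixth 33.0 kb and the strongest 21.2 kb. Among SMC3 peaks outside GATA2 peaks, the weakest were thus the closest to GATA2. The 540 SMC3-only peaks with RUNX1 had a median distance of 8.54 kb, against 24.2 kb for the 30351 without. GATA2-only peaks showed no such gap, with medians of 14.1 kb for the 2881 with RUNX1 and 13.7 kb for the 25126 without. The SMC3-only peaks with and without RUNX1 were not matched for strength. RUNX1 was called at 18.0% of the weakest and 2.77% of the strongest SMC3 decile, joint peaks included. Of these peaks with RUNX1, 85.6% in the weakest and 54.4% in the strongest decile were joint. The shares among SMC3-only peaks are thus lower and differ less.

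**Figure D4:**
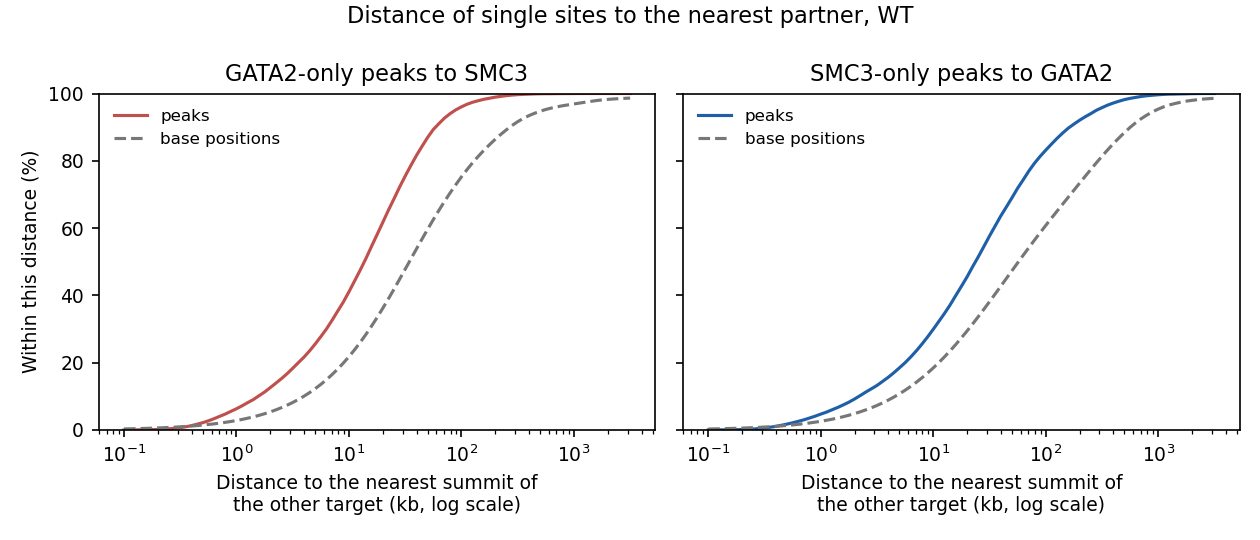
Cumulative percentage of GATA2-only peaks (left) and SMC3-only peaks (right) by distance in kb (log scale) to the nearest summit of the other target, with the same for base positions between the first and the last summit (dashed). The peak curves stand left of the base curves, with medians of 13.7 and 34.4 kb on the left and 23.8 and 57.3 kb on the right.

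The sites named here by position (hg19) follow a fixed rule, and all have a local background below 3 times the genome-wide value. The lowest sum of both ranks belonged to a joint region on chromosome 12 from 104502703 to 104503339. It had a GATA2 fold of 33.95 and an SMC3 fold of 34.9, its summits were 49 bp apart, and RUNX1 was not called there. The next, on chromosome 2 from 42890168 to 42891387, carried RUNX1 and had folds of 21.8 for GATA2 and 20.3 for SMC3 with summits 4 bp apart. The third was on chromosome 10 from 108471081 to 108471623, with folds of 27.9 and 27.6, summits 22 bp apart and no RUNX1. The remaining pair, on chromosome 2 from 134875817 to 134876445 and on chromosome 12 from 48844787 to 48845705, carried RUNX1 and had summits 176 and 125 bp apart. Such sites are the exception, since both peaks were above their medians at only 11.4% of joint regions.

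The most unequal joint regions showed both other combinations. On chromosome 11 from 17208422 to 17209003 the GATA2 fold was 18.7 and the SMC3 fold 2.53, and on chromosome 14 from 31291193 to 31291631 they were 28.5 and 2.72. Of the 5 regions of this kind, 3 carried RUNX1 and 1 was called for SMC3 in Q592*, where all regions with strong GATA2 and weak SMC3 had shares of 48.9% and 40.1%. On chromosome 1 from 157346878 to 157347636 the GATA2 fold was 2.46 and the SMC3 fold 18.4, and on chromosome 12 from 12857376 to 12857992 they were 3.05 and 27.7. Of these 5, none carried RUNX1 and all 5 were called for SMC3 in Q592*, where all regions with weak GATA2 and strong SMC3 had shares of 9.57% and 98.0%. The counts among the named regions thus add nothing to the shares of their classes.

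The strongest GATA2-only region, chromosome 10 from 96059098 to 96059795, had a fold of 32.3, with RUNX1 present and the nearest SMC3 summit 19.3 kb away. The next, chromosome 18 from 77361074 to 77361603, had a fold of 21.7 and SMC3 43.0 kb away, and SMC3 was called there in Q592*. The region on chromosome 10 from 110784786 to 110785386 had a fold of 34.8 and an SMC3 summit 6.25 kb away. The strongest SMC3-only region, chromosome 10 from 97360588 to 97361424, had a fold of 44.2 and the nearest GATA2 summit 20.8 kb away. It was followed by one on chromosome 6 from 73121772 to 73122618, with a fold of 29.6 and GATA2 144.2 kb away. RUNX1 was called at 3 of the 5 strongest GATA2-only and at none of the 5 strongest SMC3-only regions. Over the strongest deciles as a whole, joint peaks included, it was called at 60.8% of GATA2 and 2.77% of SMC3 peaks. Of the GATA2 peaks with RUNX1 in that decile 81.3% were joint, so 60.8% is not the share among single peaks. All GATA2-only regions had 10.3% and all SMC3-only regions 1.75%.

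Across chromosomes the share of GATA2 peaks with SMC3 was narrow, 20.95% (chromosome 17) to 29.1% (chromosome 11), while the share of SMC3 peaks with GATA2 was wide, 10.2% (chromosome 19) to 34.0% (chromosome 13). The ratio of GATA2 to SMC3 peaks was lowest on chromosome 19, at 0.406, and highest on chromosome 13, at 1.48. This is not a separate result. Since most joint regions held 1 peak of each target, the SMC3 share nearly follows from the GATA2 share and this ratio. The long-arm segment of chromosome 13 between 75 and 100 Mb held 1232 of its 2017 GATA2 peaks and 603 of its 1361 SMC3 peaks. In the segment 22.7% of the GATA2 peaks and 47.4% (43.5 to 51.4%) of the SMC3 peaks were joint. The segment thus weighs heavily in both high values of chromosome 13. The median summit distance ran from 45 bp (chromosome 16) to 63 bp (chromosome 21).

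Joint and single sites differed in what was called at them in the Q592* line. The Q592* GATA2 list held a peak at 94.2% (93.7 to 94.7%) of joint and 84.3% (83.9 to 84.8%) of GATA2-only regions, and at 51.0% of all regions. All regions include the SMC3-only ones, which have no WT GATA2 peak and had 6.79%. Joint GATA2 peaks are strong, and within deciles of the GATA2 list the gap was mostly absent. In the weakest decile 62.4% (57.7 to 66.8%) of joint and 52.3% (50.6 to 54.0%) of single GATA2 peaks were called in Q592*, in the third 77.5% and 76.8%, in the fifth 92.6% and 92.8%, and in the eighth 98.8% and 99.8%. The Q592* SMC3 list held one at 46.6% (45.6 to 47.5%) of joint and 79.0% (78.5 to 79.4%) of SMC3-only regions, and at 43.2% of all regions. Joint SMC3 peaks are weak, and weak peaks were called less often in Q592*, at 16.9% of the weakest and 100% of the strongest decile of all WT SMC3 peaks. Within deciles a smaller gap of the same direction was found in the middle of the list. In the third decile of SMC3 peaks 32.9% (30.9 to 35.1%) of joint and 41.1% (39.1 to 43.2%) of single peaks were called in Q592*, in the fifth 68.0% (65.2 to 70.7%) and 79.6% (78.1 to 81.0%), and in the sixth 86.4% (83.2 to 89.0%) and 94.6% (93.8 to 95.3%). The weakest decile gave 17.9% (16.3 to 19.6%) and 16.0% (14.5 to 17.6%), and from the seventh up both were at least 98.9%.

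**Figure D5:**
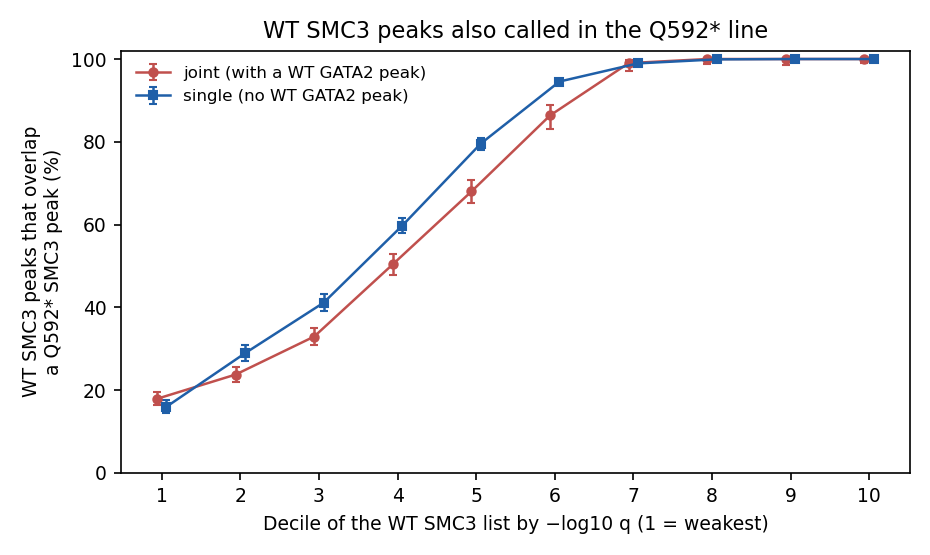
Percentage of WT SMC3 peaks that overlap a Q592* SMC3 peak, by decile of the WT SMC3 list, for joint peaks (with a WT GATA2 peak) and single ones; bars are 95% Wilson intervals. The joint peaks lie below the single ones from the second to the sixth decile, with 68.0% and 79.6% in the fifth.

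The same measures were taken for the most similar pairs of lists. GATA2 and SMC3 lay farther apart than GATA2 and RUNX1 in WT, with a median summit distance of 57 bp and 46.0% within 50 bp, against 37 bp (36 to 38 bp) and 62.4%. RUNX1 peaks were narrower than SMC3 peaks, with median widths of 218 and 269 bp, and narrower peaks overlap only with closer summits. The distances were not matched for width. The rank correlation was 0.09 for GATA2 with SMC3 and 0.26 for GATA2 with RUNX1, over 6955 joint regions. RUNX1 peaks joint with GATA2 were the stronger ones of their list (65.5% of the weakest and 89.7% of the strongest decile), whereas SMC3 peaks joint with GATA2 were the weaker ones of theirs. The values for RUNX1 with SMC3 in WT were closer to those for GATA2 with SMC3: the median distance was 53 bp (51 to 55 bp), the rank correlation was 0.13, and RUNX1 was called at 18.0% of the weakest and 2.77% of the strongest SMC3 decile. GATA2 with SMC3 in Q592* had a median distance of 59 bp (57 to 62 bp), against 57 bp (55 to 58 bp) in WT. Their ranks ran against each other in Q592*, with a rank correlation of -0.30 over 6702 joint regions, against 0.09 in WT. The sign in WT depended on the weak peaks, since a −log10 q of at least 10 in both lists gave -0.15. The strongest GATA2 decile carried SMC3 at 42.3% in Q592* and 71.7% in WT, and the weakest SMC3 decile carried GATA2 at 56.4% in Q592* and 48.8% in WT. The lists of the lines differ in length and strength. On autosomes the SMC3 list had 31878 peaks with a median −log10 q of 25.3 in Q592*, against 41215 and 18.4 in WT. The GATA2 list had 57483 peaks with a median of 15.2 in Q592*, against 38063 and 12.2 in WT. These pooled values were not tested against each other.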

How the data were processed

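ChIP-seq peak lists of TF-1 cells were used as deposited. Per the labels' protocols, chromatin was fixed in 1% formaldehyde for 10 minutes; the submitters' processing notes name Bowtie2, Picard and MACS2 and the build hg19; the sources used here give no versions. For each peak, the fold (ratio of summit pileup to local background), the −log10 p-value and the −log10 q-value are deposited values of the authors. The deposited score, a rounded form of the −log10 q, was left out. Summits are the start plus the deposited offset. Coordinates are counted from 1. Genes, motifs and sequences of hg19 were not used here.

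Summit reads and local background were recovered from fold and −log10 p; with each read given 1 fixed worth per list, whole reads gave the deposited −log10 p to within 0.002 for 100% of peaks of both WT lists (at most 1.20% with that worth changed by 3%). Summits held 19 to 848 reads (median 47) for GATA2 and 17 to 499 (median 61) for SMC3. Library depths are not in the lists, and which of the 2 WT inputs entered each list is not known. Overlap, distances, ranks and the recovery were tested on simulated data. Intervals are Wilson (95%) for shares and order-statistic intervals for medians, and cover counting error only. The regions named were the 5 leading joint, unequal and single ones by −log10 q. Members, lists and rules were chosen with earlier results of these data known. Alternatives were a stricter −log10 q, equal list lengths, other overlap rules, every contig, and regions without a raised local background. The work used Python 3.11.15, scipy 1.17.1, numpy 2.4.6, matplotlib 3.10.9 and pandas 2.3.3.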

Additional observations from a re-analysis of the deposited data

How the results depend on the processing

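No paired analysis was possible because each peak list is merged over its libraries and carries no replicate number; for the same reason no library could be left out. Of 63 alternative values 33 stayed within 1.5 times the reported count or inside the reported 95% interval, and the cause of the other changes was not tested. Intervals over this many sites are narrow, so small moves count. All values with every contig stayed, as did those without regions of at least 10 times the genome-wide background, a limit chosen after seeing the data. Percentages below are of GATA2 peaks with SMC3 first, then of SMC3 peaks with GATA2, and distances of single sites are GATA2-only first. A −log10 q of at least 10 gave 3033 joint regions, 13.5% and 11.2%, a summit distance of 53 bp, a rank correlation of -0.15 in place of 0.09, 23.3 and 39.5 kb, and RUNX1 at 37.2% of joint, 13.4% of GATA2-only and 0.833% of SMC3-only regions. Equal list lengths gave 22.7% and 23.1%, a rank correlation of 0.04, and 15.1 and 25.0 kb. A reciprocal overlap of 50% gave 6179 joint regions, 16.2% and 15.0%, 49 bp, a rank correlation of 0.24, and 10.7 and 18.3 kb; applied to RUNX1 it gave 34.2%, 7.23% and 1.09%. Summits within 200 bp gave 24.1% and 22.4%, the fold as strength a rank correlation of 0.13, and leaving out local backgrounds of at least 3 times 24.7% and 28.9%. The motif shares and gene names that had been planned were not run, since they need hg19 sequence and annotation, which were not used here. Binding below the lists' lowest −log10 q, 2.01 in both, cannot be seen.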

Other observations

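Along the chromosomes, sites of one kind tended to follow each other. The region after a joint region was again joint in 21.5% of cases, against 14.5% over all regions, and the region after an SMC3-only region was SMC3-only in 56.4%, against 44.8%. After a GATA2-only region a joint one followed in 16.6% and after an SMC3-only region in 10.4%. GATA2-only sites were spread unevenly over the 41193 intervals between neighbouring SMC3 summits, of which 35.98% held at least 1. Their density was 29.6 per Mb in intervals under 10 kb, 21.5 per Mb from 10 to 50 kb, 15.9 per Mb from 50 to 100 kb, 7.44 per Mb from 100 to 500 kb and 1.31 per Mb in longer ones, and a single interval held up to 16. Longer intervals include gaps and sequence without mapped reads, and these values were not tested.

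Peaks with a local background of at least 3 times the genome-wide value were most common among SMC3-only sites: 18.9% (18.1 to 19.7%) of joint, 11.6% (11.2 to 11.9%) of GATA2-only and 33.3% (32.7 to 33.8%) of SMC3-only regions held one. A joint region counts here when either of its peaks passes. By peak, 15.8% of joint GATA2 and 15.6% of joint SMC3 peaks did. At 10 times the genome-wide value or more were 91 joint, 115 GATA2-only and 829 SMC3-only regions. RUNX1 was called at 74.7% of these 91 joint, 20.0% of the 115 GATA2-only and 1.21% of the 829 SMC3-only regions, where all joint, GATA2-only and SMC3-only regions had 40.95%, 10.3% and 1.75%.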
